A study of Mus musculus with 6 samples.

Results

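The D cyclins, their kinase partners CDK4 and CDK6, and the inhibitors that hold these kinases in check form the switch with which a cell commits to division. The genes described here are Ccnd1, Ccnd2, Ccnd3, Cdk4, Cdk6, Cdkn2a, Cdkn2b, Cdkn1a, Cdkn1b and Cdkn1c, 10 of the 19751 genes and other features tested. They were taken by gene name from the non-control probes of an Agilent mouse expression array, which holds 24 probes for them, all well above background in every sample. RNA came from skin tumours of male mice: 3 tumours labelled P2ry6-/- (called labelled knockout) and 3 labelled P2ry6+/+ (called labelled wild-type). All mice had received a single dose of 195 nmol of the carcinogen DMBA on shaved back skin and, from a week later, repeated doses of 16 nmol of the tumour promoter TPA up to week 22, so the wild-type tumours are treated tumours too and no untreated skin is compared. The labels give neither the age of the mice nor the part of P2ry6 that was removed, and they do not say that each tumour came from a separate mouse; p-values therefore measure the spread between these samples, which may be smaller than that between mice.

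Growth signals, Ras and ERK signals among them, induce D cyclins, which bind and activate CDK4 and CDK6. The active kinases phosphorylate the retinoblastoma protein and its relatives, which then release E2F factors to switch on genes of DNA replication. INK4 proteins (p16 from Cdkn2a and p15 from Cdkn2b among them) bind CDK4 and CDK6 and block cyclin D binding, while CIP/KIP proteins (p21 from Cdkn1a, p27 from Cdkn1b, p57 from Cdkn1c) act on several cyclin-CDK complexes. In mouse skin tumours raised with DMBA and TPA, which commonly carry Hras mutations, cyclin D1 is a known driver of papilloma growth, and the Cdkn2a locus is a known barrier to malignant progression.

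The values below are log2 signals minus the array's 75th percentile, so that 0 lies at that percentile of all non-control probes, and 3 values of a label are those of replicates 1, 2 and 3. The 75th percentile itself was 277.1 to 299.6 signal units in the labelled knockout and 321.7 to 367.9 in the labelled wild-type arrays. P2ry6, which encodes a receptor for uridine diphosphate, was not lower under the knockout label. Its brighter probe read 0.57, 0.70 and 0.45 in labelled knockout replicates 1, 2 and 3, against 0.38, 0.33 and -0.21 in labelled wild-type replicates 1, 2 and 3. A probe outside the removed part checks nothing, so every direction here follows the labels. Keratinocyte markers were high in all tumours: Krt5, a basal keratin, read 9.35 to 9.62 under the knockout label and 9.23 to 9.55 under the wild-type label. Skeletal muscle genes set the groups apart: the mean of 14 muscle markers was -3.77 to -3.37 in the labelled knockout tumours and -0.48 to 4.0 in the labelled wild-type tumours. The mean of 9 fat-cell markers was -2.38 to -2.08 in the labelled knockout tumours and 0.62 to 1.81 in the labelled wild-type tumours. Of these markers, 6 muscle and 4 fat-cell genes stayed near background in all 3 labelled knockout tumours and were tested through the labelled wild-type ones alone, so the labelled knockout means are in part background values. Lep and Lipe, among the fat-cell markers, differed by 0.37 and 0.26 in the other direction. In such bulk samples, fewer cells of a type and less RNA per cell cannot be told apart.

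None of the 10 genes passed the test. With limma and Benjamini-Hochberg adjustment over all features, 0 of 10 had an adjusted p below the threshold of 0.05, where 0.162% of all features did. At an unadjusted p below that threshold there were 2 of 10, Cdk6 and Cdkn2b, against 13.2% of all features. The groups did not overlap for the same 2 genes, against 19.5% of all features. At their brightest probes 5 genes were higher and 5 lower under the knockout label, with a median log2 difference of -0.02 beside 0.02 over all features. Of the 24 probes 0 passed, where 0.145% of all tested probes did. At 5 of the 24 the groups did not overlap (18.9% of tested probes), and the same number had an unadjusted limma p below 0.05 (12.7%). None of the 10 differed by 2-fold or more, where 5.93% of features did. The count of features called moved with the tumours used. With all arrays it was 32. It was 16, 15 and 10 when labelled knockout replicate 1, 2 or 3 was left out, and 13, 120 and 40 when labelled wild-type replicate 1, 2 or 3 was left out.

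**Figure D1:**
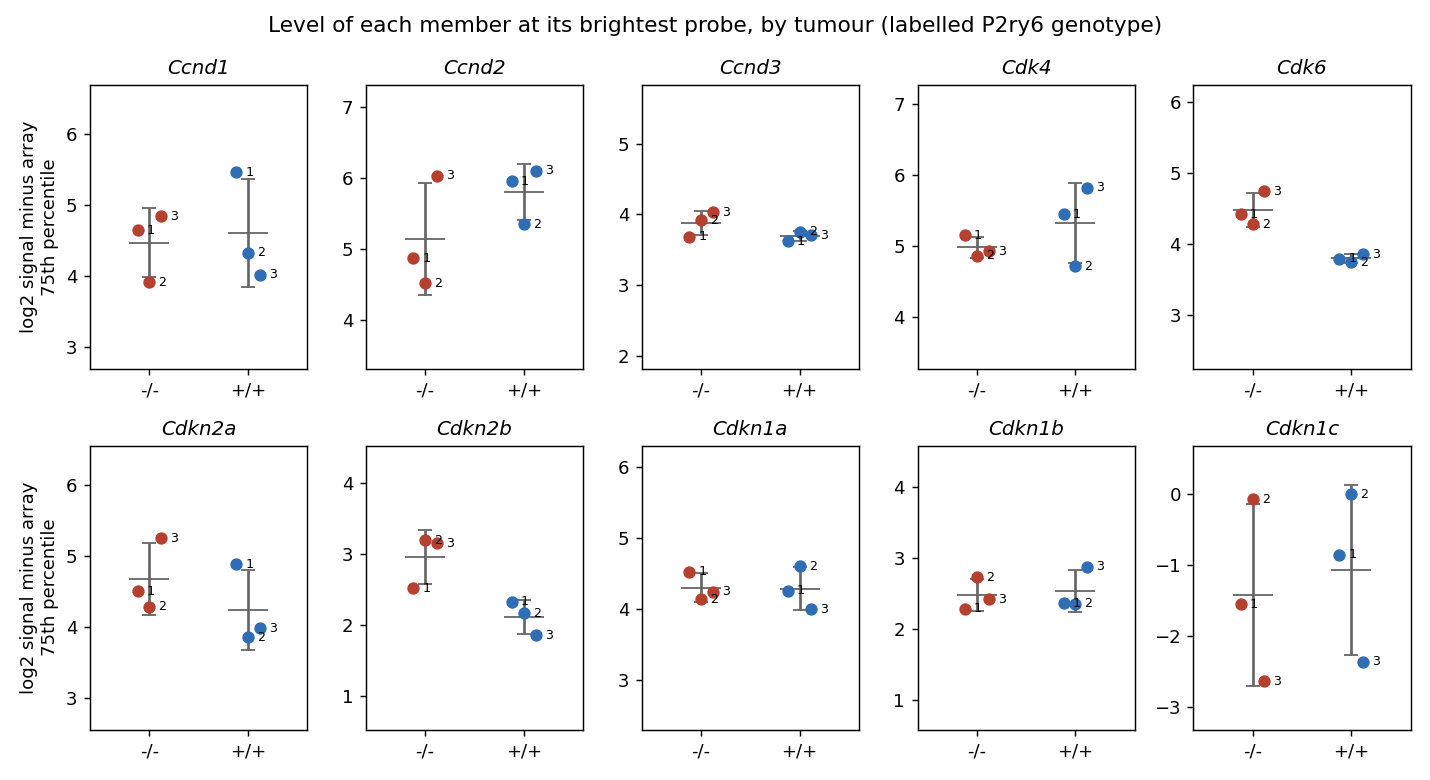
Level of each gene at its brightest probe, as log2 signal minus the array's 75th percentile, in the 3 labelled P2ry6-/- tumours (red, left) and the 3 labelled P2ry6+/+ tumours (blue, right). Digits give the replicate, bars the mean and SD, and each panel spans 4 log2 units; the groups are apart for Cdk6 and Cdkn2b only.

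For each of the D cyclins the groups overlapped at every probe. Ccnd1, which encodes cyclin D1, has a single probe, on chromosome 7 from 152116202 to 152116261 (build mm9, minus strand). It read 4.64, 3.91 and 4.84 in labelled knockout replicates 1, 2 and 3, against 5.46, 4.32 and 4.01 in the labelled wild-type tumours. The highest and the second lowest level both lay in the wild-type group, and the groups overlapped. The log2 difference was -0.13 (95% interval -1.12 to 0.87, limma adjusted p = 0.926), and without labelled wild-type replicate 1 it was 0.31, in the other direction.

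Ccnd2, which encodes cyclin D2, had the widest gap between group means among the D cyclins. Its brightest probe, on chromosome 6 from 127080268 to 127080327, read 4.87, 4.52 and 6.03 in labelled knockout replicates 1, 2 and 3, against 5.95, 5.35 and 6.10 in labelled wild-type replicates 1, 2 and 3. Replicates 1 and 2 of the labelled knockout tumours were the lowest of the 6, while replicate 3 lay within the wild-type range. The difference was -0.66 (95% interval -1.63 to 0.31, limma adjusted p = 0.549). The other probes gave -0.80 (from 127098696 to 127098755) and -0.76 (from 127075412 to 127075471), with limma adjusted p = 0.477 and adjusted p = 0.491 over the 29720 tested probes. At the brightest probe the difference was -1.11 without labelled knockout replicate 3 and -0.35 without labelled knockout replicate 2. All 3 probes thus put the same 2 tumours lowest. The middle 30 of the 60 bases of each are shown, in that order of position along the sense strand, because they lie 4856 and 18428 bases of genome from the brightest one, not all on the same annotated transcript, and put the 6 tumours in the same order.
Ccnd2 A_52_P53906: tgactgcggaaaagctgtgcatttacaccg
Ccnd2 A_55_P2917114: ttgctagccccttctttctctagttatgtc
Ccnd2 A_65_P18532: gggatacgaggagagtctaaagtagcagat

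Ccnd3, which encodes cyclin D3, was the steadiest of the 3. Its brightest probe (chromosome 17 from 47736572 to 47736631) read 3.69, 3.92 and 4.03 under the knockout label, against 3.62, 3.76 and 3.71 under the wild-type label in replicates 1, 2 and 3. The difference of 0.18 had a 95% interval of -0.20 to 0.56 (limma adjusted p = 0.667), and the other probes gave 0.12 and 0.13. The range over the 6 arrays was 0.41 log2 units, and only 13.1% of the tested probes had a narrower one.

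The kinase genes pointed in opposite directions. Cdk4 read 5.16, 4.87 and 4.93 in labelled knockout replicates 1, 2 and 3 at its brightest probe (chromosome 10 from 126504279 to 126504338), against 5.45, 4.72 and 5.83 in the labelled wild-type tumours. The labelled knockout tumours lay close together, inside the wider range of the wild-type ones. The difference was -0.34 (95% interval -1.03 to 0.34, limma adjusted p = 0.664), and the other 3 probes gave -0.29, -0.47 and -0.52. Without labelled wild-type replicate 3, the highest, the difference was -0.09; without replicate 2, the lowest, it was -0.65.

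Cdk6 was higher in every labelled knockout tumour than in any labelled wild-type tumour at all 3 of its probes, without passing the adjusted test. CDK6 shares the role of CDK4 and is prominent in blood cells as well as in epithelium. The brightest probe (chromosome 5 from 3529287 to 3529346) read 4.42, 4.28 and 4.74 in labelled knockout replicates 1, 2 and 3, against 3.79, 3.74 and 3.86 in the labelled wild-type tumours. The wild-type tumours differed by little, with an SD of 0.0569 against 0.238 under the knockout label (n = 3 each). The difference was 0.68 (SE 0.173, 95% interval 0.27 to 1.09), a ratio of 1.61, with limma adjusted p = 0.226 over all features. The two-sided exact permutation test gave p = 0.1, the smallest that 3 samples against 3 allow. The second probe (from 3525114 to 3525173) read 1.70, 1.34 and 1.78 under the knockout label, against 1.05, 0.73 and 1.07 under the wild-type label, a difference of 0.66 (limma adjusted p = 0.263). The third (from 3522088 to 3522147) read -1.26, -1.33 and -0.94 under the knockout label, against -2.06, -1.56 and -1.75 under the wild-type label, a difference of 0.61 (limma adjusted p = 0.299). The groups did not overlap at either. The middle 30 bases of each probe are given because they lie up to 7199 bases apart, do not overlap and returned differences of similar size.
Cdk6 A_51_P489779: ggcttcactgtaaagtgtgtattgtttctg
Cdk6 A_55_P2736430: cattggaagaatacatgcttgcttgtaaca
Cdk6 A_66_P113861: gtttcctatctttaagtgtatgttgtcagt

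The means of several marker lists separated the labels as Cdk6 did. Among single features 19.5% did so, a share that does not apply to means over several genes. Of the hyperproliferative keratinocyte, differentiated keratinocyte and sebaceous gland markers, 0 passed the adjusted limma test. Besides the muscle and fat-cell markers given above, the mean of 7 hyperproliferative keratinocyte markers was 9.14 to 9.27 in the labelled knockout and 8.90 to 8.97 in the labelled wild-type tumours, with 5 of 7 higher. The mean of 8 differentiated keratinocyte markers was 6.89 to 7.18 in the labelled knockout and 6.42 to 6.74 in the labelled wild-type tumours, with 6 of 8 higher. All 8 sebaceous gland markers were lower, with a mean of -0.48 to 0.65 in the labelled knockout and 1.12 to 4.36 in the labelled wild-type tumours, and 1 of them was near background in all labelled knockout tumours. Among the labelled wild-type tumours Cdk6 spanned 3.74 to 3.86 while the muscle mean spanned -0.48 to 4.0. T cell markers, 6 of which were measured, averaged -0.81 to -0.28 in the labelled knockout and -0.89 to -0.52 in the labelled wild-type tumours. The part of these cells in the Cdk6 difference was not tested. Across 19 alternatives, other probes included, the Cdk6 difference lay between 0.55 and 0.78. The unadjusted limma p was below 0.05 in all 19, and the adjusted p was 0.116 at the lowest. All 19 draw on the same tumours, so they are not repeated evidence. That unadjusted cut took in 13.2% of all features in the main fit, and 1621 to 3879 features in the refits over 19751.

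**Figure D2:**
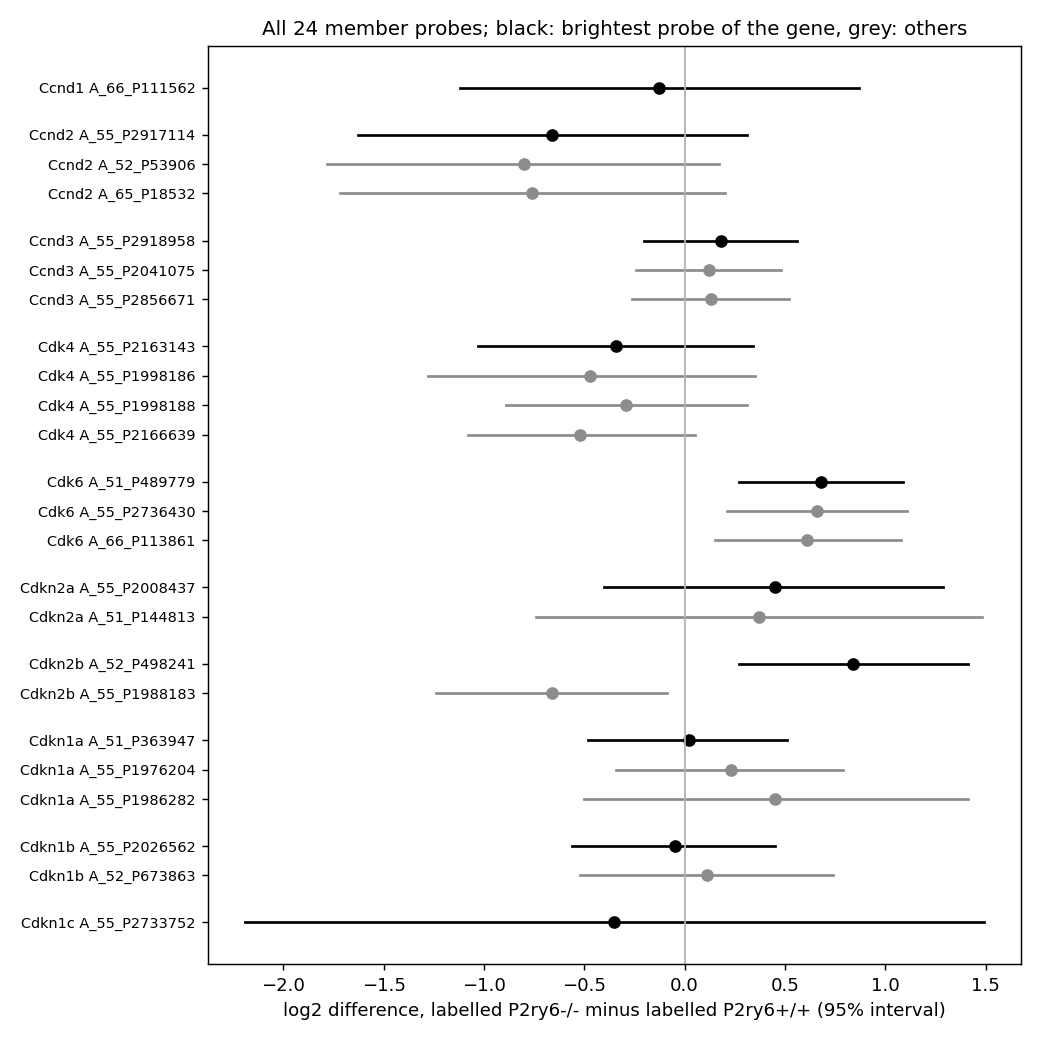
Log2 difference between labelled P2ry6-/- and labelled P2ry6+/+ tumours for all 24 probes, with 95% intervals from limma (black, the brightest probe of the gene; grey, its other probes). The 3 Cdk6 probes lie at 0.61 to 0.68, while the Cdkn2b probes lie on opposite sides of 0, at 0.84 and -0.66.

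Of the INK4 genes, Cdkn2b gave a result that turned with the probe. It encodes p15, an inhibitor that TGF-beta induces in keratinocytes. Its brighter probe (chromosome 4 from 88952437 to 88952496, minus strand) read 2.51, 3.19 and 3.15 in labelled knockout replicates 1, 2 and 3, against 2.32, 2.16 and 1.85 in labelled wild-type replicates 1, 2 and 3. All labelled knockout values were above all wild-type values, with a difference of 0.84 (95% interval 0.27 to 1.41, limma adjusted p = 0.262). The dimmer probe (from 88952276 to 88952335) read 0.71, 1.48 and 1.29 under the knockout label, against 2.09, 1.70 and 1.67 under the wild-type label. Here all labelled knockout values were below all wild-type values, with a difference of -0.66 (95% interval -1.24 to -0.09, limma adjusted p = 0.344). The centres of these probes are 161 bases apart, both are assigned to the same RefSeq transcript, and the dimmer one lies nearer the 3′ end. With no annotation of build mm9 used here, exon or untranslated region is not given for any probe. Their middle 30 bases are shown because the reading of this gene depends on which of them is used.
Cdkn2b A_52_P498241: acctgcaaaatggcatttatagaaactgag
Cdkn2b A_55_P1988183: agtggtagcaggttactctatgcaaaatag

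The log2 difference between the 2 Cdkn2b probes within an array was 1.79, 1.72 and 1.86 in labelled knockout replicates 1, 2 and 3, against 0.23, 0.46 and 0.18 in the labelled wild-type tumours. The tumours of a label lay close together, and the labels were 1.50 apart (95% interval 1.20 to 1.81). This contrast was chosen after the values were seen. To set it against the rest of the array, the brightest probe minus each other tested probe was fitted in the same way for every gene with more than 1 tested probe. Cdkn2b had the fourth smallest p of 9795 such pairs (limma adjusted p = 0.0196), 0.184% of which passed. Among the 1110 pairs with centres within 500 bases of each other, it was the 1 that passed (0.0901%). The other 13 pairs within the 10 genes differed between labels by -0.44 to 0.17, with adjusted p of 0.763 or more. The size of the Cdkn2b contrast stayed between 1.45 and 1.59 when any array was left out. Its adjusted p was 0.0823, 0.0934 and 0.110 without labelled knockout replicates 1, 2 and 3, and 0.0709, 0.0226 and 0.0596 without labelled wild-type replicates 1, 2 and 3. Of these 6 fits only the one without labelled wild-type replicate 2 passed. A ratio within an array shows that the probes did not move alike, and whether total Cdkn2b RNA differed is not settled by either probe. Whether the bases under the probes are the same in all tumours was not tested. The contrast also missed the threshold with the replicate number as a block (limma adjusted p = 0.0758) and with the first number of the slide position as a block (limma adjusted p = 0.0548).

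**Figure D3:**
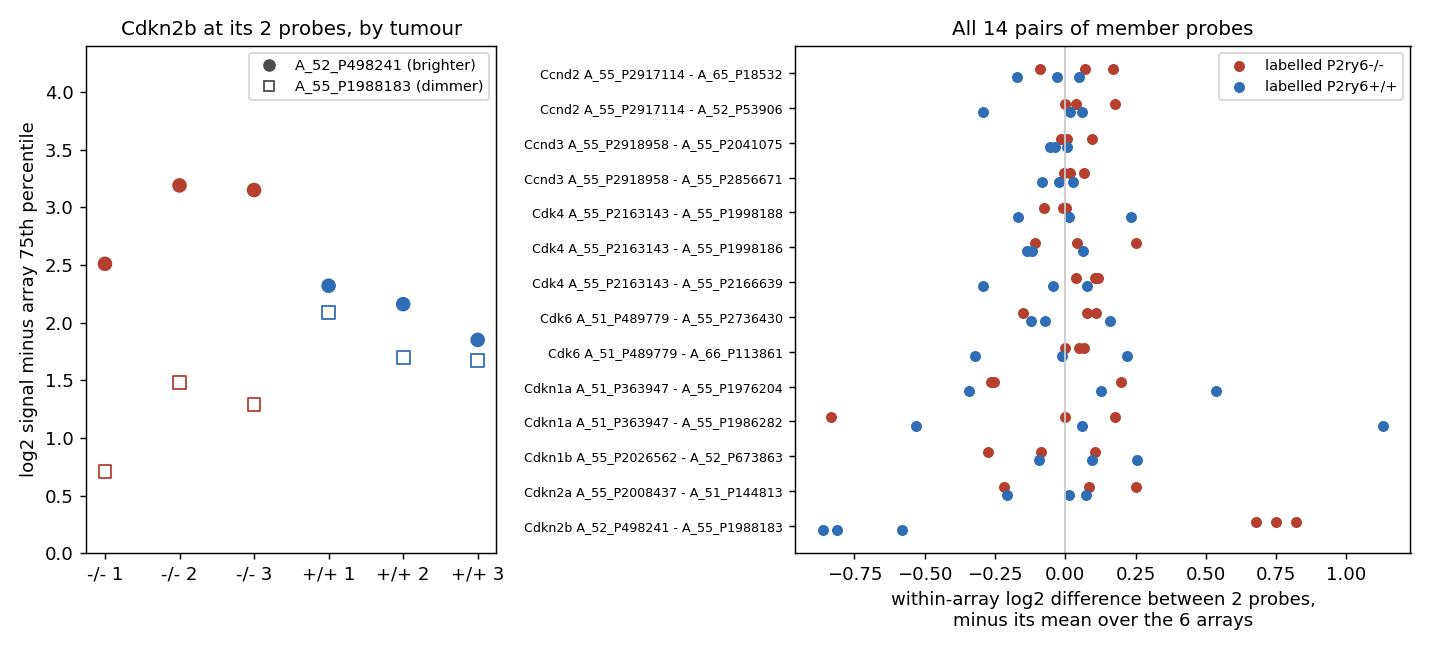
Left, Cdkn2b at its brighter (filled) and dimmer (open) probe in each tumour, as log2 signal minus the array's 75th percentile. Right, the within-array log2 difference between the brightest probe of a gene and each of its others, minus the mean over the 6 arrays; for Cdkn2b the labelled P2ry6-/- tumours (red) and the labelled P2ry6+/+ tumours (blue) are 1.50 apart on average; for the other 13 pairs the average differs between labels by -0.44 to 0.17.

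Cdkn2a, which encodes p16 and, from another reading frame, the p53-stabilising protein p19Arf, lies beside Cdkn2b on chromosome 4. Both of its probes are assigned to 1 transcript accession, and the files do not say which product they measure. The brighter probe (from 88920405 to 88920464) read 4.51, 4.29 and 5.26 in labelled knockout replicates 1, 2 and 3, against 4.89, 3.86 and 3.99 in the labelled wild-type tumours. The groups overlapped, with a difference of 0.45 (95% interval -0.40 to 1.29, limma adjusted p = 0.653). The other probe, whose centre is 140 bases away, read 0.13, -0.26 and 1.18 under the knockout label, against 0.79, -0.52 and -0.33 under the wild-type label. It ordered the tumours within each label in the same way and gave a difference of 0.37. At the brighter probe the difference was 0.77 without labelled wild-type replicate 1 and 0.16 without labelled knockout replicate 3. Labelled knockout replicate 3 and labelled wild-type replicate 1 were the highest of their groups for Cdkn2a and for Ccnd1 alike.

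The genes of chromosome 4 around this locus were taken from a list of 7, of which 5 were measured, and 0 passed the adjusted test. Hacd4, a gene of fatty acid elongation, had the smallest p, with -1.50, -1.28 and -1.48 in the labelled knockout tumours against -2.19, -1.99 and -3.03 in the labelled wild-type tumours. Its groups did not overlap (difference 0.98, limma adjusted p = 0.263). Mtap, which salvages methionine and is often lost together with Cdkn2a in human tumours, read 2.46, 1.97 and 2.43 under the knockout label, against 3.42, 2.06 and 3.19 under the wild-type label (difference -0.60, adjusted p = 0.542). Focad and Mllt3 differed by 0.40 and 0.46 (adjusted p = 0.423 and adjusted p = 0.510), so neighbours lay on both sides of 0.

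Among the CIP/KIP inhibitors the groups overlapped at every probe. Cdkn1a, the p53 target that encodes p21, read 4.52, 4.13 and 4.24 in labelled knockout replicates 1, 2 and 3 at its brightest probe (chromosome 17 from 29237377 to 29237436), against 4.25, 4.60 and 3.99 in the labelled wild-type tumours. The difference was 0.02 (95% interval -0.48 to 0.51, limma adjusted p = 0.982), so a change of more than about 0.5 log2 units in either direction lies outside the interval at this probe. Its dimmer probes, assigned to other transcripts, differed by 0.23 and 0.45 with groups that overlapped (adjusted p = 0.737 and adjusted p = 0.685). Their 95% intervals, -0.34 to 0.79 and -0.50 to 1.41, take in larger increases. Cdkn1b, which encodes p27, read 2.29, 2.73 and 2.42 under the knockout label, against 2.37, 2.36 and 2.88 under the wild-type label (chromosome 6 from 134875424 to 134875483). The difference was -0.05 (95% interval -0.56 to 0.45, adjusted p = 0.937), and the other probe gave 0.11.

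Cdkn1c varied most of the 10 genes. It encodes p57, is imprinted, with expression mainly from the maternal copy. Its probe (chromosome 7 from 150644297 to 150644356) read -1.55, -0.07 and -2.63 in labelled knockout replicates 1, 2 and 3, against -0.85, 0.00 and -2.36 in the labelled wild-type tumours. The range over the 6 arrays was 2.62 log2 units, wider than that of 96.2% of the tested probes, and replicate 2 was highest and replicate 3 lowest under both labels. The difference was -0.35 (95% interval -2.19 to 1.49, limma adjusted p = 0.886). It was 0.26 without labelled knockout replicate 3 and 0.19 without labelled wild-type replicate 2.

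Within each label, the fibroblast, sebaceous gland and T cell marker means all ordered the tumours as Cdkn1c did. The mean of 8 measured fibroblast markers was 4.0, 4.59 and 3.48 under the knockout label, against 3.92, 4.38 and 2.77 under the wild-type label. Dcn, which encodes the matrix proteoglycan decorin and is one of the 8, read 3.72, 5.45 and 3.27 under the knockout label, against 4.5, 5.21 and 2.44 under the wild-type label. Dcn is also among the genes picked for the pattern closest to Cdkn1c, so its likeness follows from that choice, and Lum did not keep the order in the labelled wild-type tumours (3.66, 3.59 and 1.86). Between labels the log2 difference was -0.35 for Cdkn1c (95% interval -2.19 to 1.49) and 0.41 for the median fibroblast marker, a value inside that interval. The sebaceous gland mean was 0.01, 0.65 and -0.48 under the knockout label, against 1.94, 4.36 and 1.12 under the wild-type label. The T cell mean was -0.56, -0.28 and -0.81 under the knockout label, against -0.88, -0.52 and -0.89 under the wild-type label. The median difference was -2.55 for sebaceous gland and 0.25 for T cell markers. The shares of these cell types in the tumours were not measured, and their part in the Cdkn1c levels was not tested. H19, an imprinted RNA gene of the same stretch of chromosome 7 that was chosen after its values were seen, had another pattern. It read 2.56 in labelled knockout replicate 1 and 3.55 in labelled wild-type replicate 2, against -1.26 to -0.79 in the other knockout and -1.13 to -0.87 in the other wild-type tumours. Of the 12 neighbours of Cdkn1c measured, 10 were higher and 2 lower under the knockout label (median 0.23), and 0 passed. Those with the smallest p were Osbpl5, Slc22a18, Tssc4 and Tspan32, with differences of 0.40, 0.58, 0.34 and 0.35 (adjusted p between 0.453 and 0.589).

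**Figure D4:**
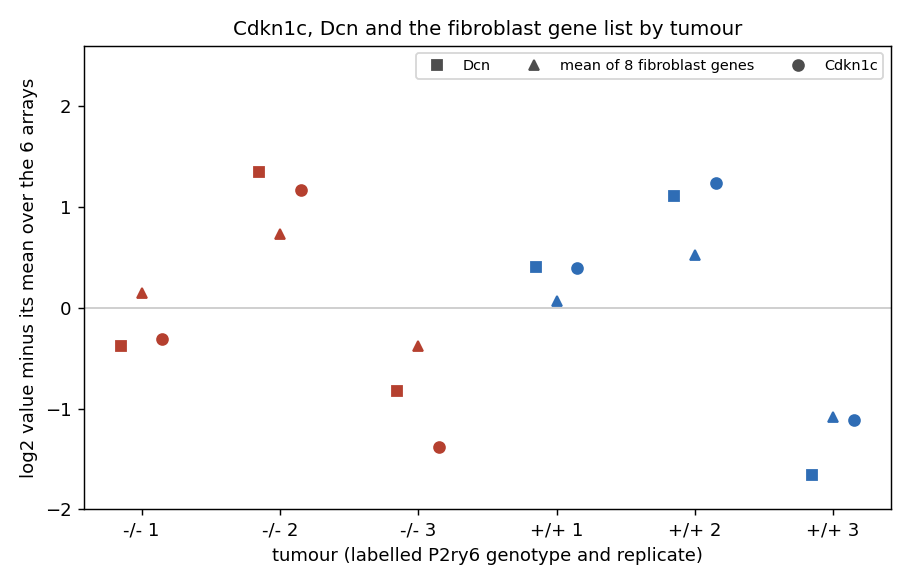
Cdkn1c (circles), Dcn (squares) and the mean of 8 fibroblast markers (triangles) in each tumour, as log2 value minus its own mean over the 6 arrays, with labelled P2ry6-/- tumours in red on the left and labelled P2ry6+/+ tumours in blue on the right. All 3 are highest in replicate 2 and lowest in replicate 3 under both labels. The sebaceous gland and T cell marker means, not drawn, keep the same order. Dcn was chosen for its likeness to Cdkn1c.

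Within a label, the order of the tumours was counted over the 10 genes. Labelled knockout replicate 2 was the lowest of its group for 6 of the 10 genes (Ccnd1, Ccnd2, Cdk4, Cdk6, Cdkn2a and Cdkn1a) and the highest for 3, all of them inhibitors (Cdkn2b, Cdkn1b and Cdkn1c). Labelled knockout replicate 3 was the highest for 5, among them all of the D cyclins. Labelled wild-type replicate 2 was the lowest of its group for 5 of the 10. The same counts over all features were not made, so these have no share to stand beside. The same knockout replicate 2 had the lowest mean of the 20 E2F target genes, 2.34, against 2.94 and 2.53 in knockout replicates 1 and 3 and 2.69 to 3.04 in the labelled wild-type tumours.

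Other genes of the pathway were read from 8 lists with 103 genes, 97 of them measured. None passed the adjusted limma test, where 0.162% of all features did. At an unadjusted p below 0.05 there were 9 (9.28%), 3 higher and 6 lower, against 13.2% of all features. Groups did not overlap for 13 (13.4%), 4 higher and 9 lower, against 19.5% of all features. By direction, 7.85% of all features were higher and 5.37% lower at an unadjusted p below 0.05, and 12.1% lay wholly higher and 7.36% wholly lower.

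Upstream of the E2F factors, the remaining INK4 genes and the pocket protein genes gave small differences. Cdkn2d, which encodes the INK4 protein p19, read 2.26, 2.56 and 2.63 in the labelled knockout tumours against 1.83, 2.13 and 1.97 in the labelled wild-type tumours, without overlap (difference 0.50, adjusted p = 0.307). Cdkn2c, which encodes p18, differed by -0.07. Rb1, the retinoblastoma gene, differed by 0.08 (adjusted p = 0.894). Of the 13 pocket protein and E2F genes, 3 were higher and 10 lower (median -0.17). Groups did not overlap for E2f5, E2f1 and E2f3. The E2F genes with the smallest p were E2f5 at -0.47, E2f2 at -1.03, E2f1 at -0.43 and E2f3 at -0.37, with adjusted p of 0.323, 0.357, 0.371 and 0.4. E2f1 read 0.01, -0.37 and -0.37 in the labelled knockout tumours against 0.10, 0.10 and 0.33 in the labelled wild-type tumours.

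Downstream, nearly all genes had a slightly lower group mean under the knockout label. All 20 E2F target and proliferation genes had a lower group mean there, where 52.1% of all features were higher, with a median of -0.31 and 0 passing. The mean of the 20 was 2.94, 2.34 and 2.53 under the knockout label, against 3.01, 2.69 and 3.04 under the wild-type label. Labelled knockout replicate 1 thus lay within the wild-type range, and only replicates 2 and 3 lay below it. Tyms, the thymidylate synthase gene, read 2.55, 1.80 and 2.13 under the knockout label, against 2.70, 2.55 and 2.90 under the wild-type label (difference -0.56, adjusted p = 0.368). It was the only one of the 20 without overlap, and only before rounding. Labelled knockout replicate 1 and labelled wild-type replicate 2 both read 2.55. Mcm5 and Ccnb1 differed by -0.43 and -0.51 (adjusted p = 0.423 and adjusted p = 0.476). Of 9 measured genes of cyclin E, cyclin A and CDK2, 8 were lower (median -0.19). Skp2, whose product marks p27 for degradation, differed by -0.29 with groups barely apart, Ccna2 by -0.28, Cdc25a by -0.31 and Ccnh by -0.22 (adjusted p of 0.514 to 0.629). For Skp2 the highest labelled knockout value was -1.65 and the lowest labelled wild-type value -1.64. Genes of one programme are not separate observations.

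The p53 pathway, which acts through Cdkn1a, had 14 of 22 genes higher and 8 lower (median 0.11, 0 passing). Eda2r, a p53-induced receptor gene, had the smallest p, with -2.59, -3.01 and -2.11 in the labelled knockout tumours against -0.93, -1.75 and -1.01 in the labelled wild-type tumours (difference -1.34, adjusted p = 0.206). Plk2 was higher in each labelled knockout tumour than in any labelled wild-type tumour (difference 0.50, adjusted p = 0.295), and Sesn2 and Mdm4 differed by 0.33 and 0.30. Among 14 regulators of the INK4 locus, 4 were higher and 10 lower (median -0.04). Tbx2, a repressor of Cdkn2a, read -2.72, -2.61 and -3.89 under the knockout label, against -1.80, -2.22 and 1.00 under the wild-type label (difference -2.07, adjusted p = 0.376), with labelled wild-type replicate 3 far above the rest and the probe above background in 2 of the 3 labelled knockout tumours. Ets2, Bmi1 and Dmtf1 differed by 0.39, -0.51 and -0.31 (adjusted p of 0.422 to 0.472).

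**Figure D5:**
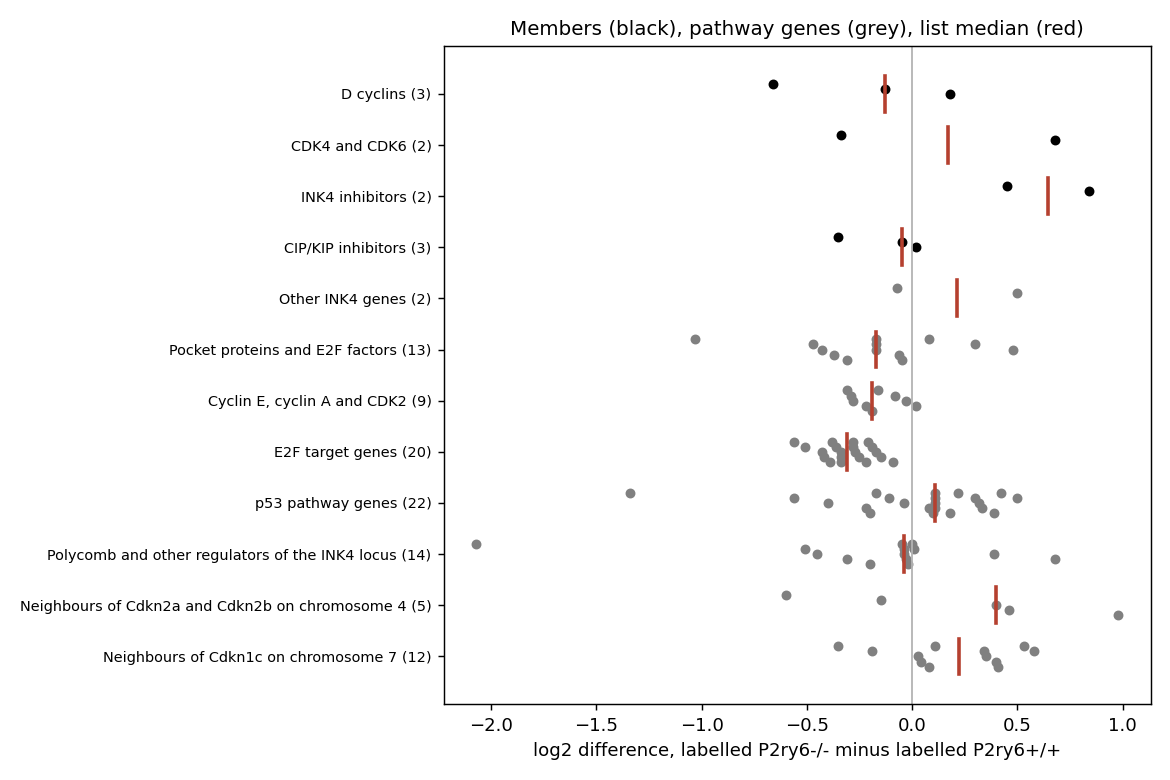
Log2 difference between labelled P2ry6-/- and labelled P2ry6+/+ tumours for the 10 genes (black) and the 97 other pathway genes (grey), 1 point per gene, with the median of each list in red and the number measured in brackets. The 20 E2F targets all lie below 0, with a median of -0.31.

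For each of the 10 genes that spanned at least 1 log2 unit over the 6 arrays, the 3 named genes with the closest pattern were listed, by the mean absolute difference of values centred over the 6 arrays. Cdk6 spanned just under 1 before rounding and was not among them. Closest to Ccnd1 were Pla2g3, Limd2 and Parva, at 0.115 to 0.147, where the median over all named features was 0.485. Closest to Ccnd2 were G630064G18Rik, Spon2 and the growth factor gene Nrg1, at 0.108 to 0.131. Nrg1 read 2.55, 1.68 and 3.44 in the labelled knockout tumours against 3.48, 2.82 and 3.42 in the labelled wild-type tumours. Cdk4 had the nearest neighbours of all, Pwp1, Pwp2 and Sarnp, at 0.0468 to 0.0658 against a median of 0.371. Pwp1 and Pwp2 act in ribosome production. Closest to Cdkn2a were Wnt9a, Ly6c1 and Poln, at 0.107 to 0.121. Those closest to the brighter probe of Cdkn2b were Slc7a4, Slc37a1 and 4930405A21Rik, at 0.0743 to 0.0925. Closest to Cdkn1c were Itih5, Dcn and Ccl21a, at 0.246 to 0.254 against a median of 0.959.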

How the data were processed

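RNA of 6 tumours, 0.2 ug each, was labelled with Cy3 and measured on 6 one-colour arrays, per the labels. The intensity values deposited (processed, mean and local background signal) were made with Agilent Feature Extraction 10.7.1.1, which the submitters' processing notes name. Spatial and multiplicative detrending were switched on and probe positions are on mm9, per the file headers. The authors also gave a value table on the log2 scale, whose columns all have a median of 4.969. Its normalization and centring are unknown here.

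Of 62976 spots, 59305 were not controls; 68 to 184 per array with an outlier flag were left out, 0 were saturated, and spots of a probe were averaged. Values are log2 processed signal minus the array's 75th percentile over the 56605 probes. A probe was tested if well above background on all arrays of at least 1 label, and a gene was represented by its brightest tested probe. Names came from RefSeq (GRCm38.p6) by accession for 32994 probes, by symbol for 10224 and by synonym for 520, and 12867 kept the name on the array.

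Labels were compared with limma 3.58.1 (lmFit and eBayes, R 4.3.3), two-sided, with Benjamini-Hochberg adjustment at 0.05: over 19751 features for the brightest probe of a gene, over 29720 probes for others. Intervals are limma's 95% intervals. For single probes, the brightest included, they and the SE come from the fit over 29720 probes. For pairs of probes they come from the fit over 9795 pairs. The fit was tested on simulated data. The genes and lists were chosen with earlier results of these data known. Named were P2ry6, the 10 genes at all probes, up to 4 genes of each pathway list with the smallest p, and the closest patterns; Rb1 was added for its role and H19 after its values were seen. One gene that this rule names is not reported here. The number of arrays limits the precision: between 54.2% and 59.4% of non-control spots were well above background. All arrays lay on 1 slide. Alternatives covered background correction, scaling, filters, probe choice, variance model, array weights, the series value table, replicate and slide position as blocks, and each array left out.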

Additional observations from a re-analysis of the deposited data

How the results depend on the processing

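In all 17 refits over all features 0 of the 10 genes passed. Ccnd2, Ccnd3, Cdk4, Cdk6 and Cdkn2a kept their direction in every refit and at every probe, but with an array left out Ccnd2 was -1.11 to -0.35, Cdk4 -0.65 to -0.09, Ccnd3 0.10 to 0.28 and Cdkn2a 0.16 to 0.77, and with slide position as a block Ccnd2 was -0.33. Cdkn2b differed by -0.66 at its dimmer probe (0.09 as the mean over its probes) and kept its direction elsewhere. The other 4, all near 0 or with wide intervals, changed sign. Ccnd1 was 0.04 with slide position (its first number, which the files do not name as row or column) as a block and -0.42 to 0.31 with an array left out. Cdkn1a was -0.01 with normexp, -0.03 with median centring, -0.08 with slide position and -0.13 to 0.18 with an array left out. Cdkn1b was 0.03 as the mean over probes, 0.01 with array weights, 0.11 at its other probe and -0.18 to 0.12 with an array left out. Cdkn1c was -1.02 to 0.26 with an array left out. Replicates of a number did not deviate together for every pair (r = 0.06, 0.26 and 0.14; 2 of 3 labelled wild-type arrays correlated best with their own number). With the replicate block, 5 features passed and the Cdkn2b contrast of 1.50 had limma adjusted p = 0.0758. It was 1.48 (adjusted p = 0.0548) with slide position, so both blocks end its call, and 1.45 to 1.59 with an array left out. Blocks and left-out arrays leave fewer degrees of freedom. The count of features passing, 32, was 10 with normexp, 18 with no filter, 89 with array weights, 5 where every array had to be above background, 21 with slide position and 10 to 120 with an array left out. Only the unfiltered fit moved the median of all features by over 0.1, to 0.187.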
